A study of Mus musculus with 6 samples.

Results

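RUNX1 binding was examined at 10 mouse genes that restrain signalling through mitogen-activated protein kinases (MAPKs): the dual-specificity phosphatase genes Dusp1, Dusp4, Dusp5, Dusp6 and Dusp10, the Sprouty genes Spry1, Spry2 and Spry4, and the Sprouty-related genes Spred1 and Spred2. The genes were chosen by name. Their RUNX1 peaks were all those with a summit inside the gene body or within 50 kb of either end of it. This gave 58 of the 51515 peaks in the 4 deposited lists, at 10 of 21887 protein-coding genes.

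Chromatin came from granulosa cells, the somatic cells around the oocyte, of CBA x C57BL/6 F1 mice aged 21 days, and RUNX1-bound DNA was sequenced (ChIP-seq). The mice were given 5 IU of equine chorionic gonadotropin (eCG), which makes follicles grow. As labelled, 5 IU of human chorionic gonadotropin (hCG) followed 46 h later, acting in place of the ovulatory luteinising hormone. No hCG dose was entered for the 0 h libraries, which were taken to be collected before hCG. There were 2 RUNX1 libraries of pre-ovulatory cells, labelled 0 h after hCG, and 2 of peri-ovulatory cells collected 6 h after hCG, with 1 pooled input for each time point. The time point comes from the sample titles and the time label, since the labels describe one treatment for every library. The labels do not say whether the libraries of a time point came from separate mice or pools, so p-values measure only the spread between these libraries, which may be technical. Peak lists hold no expression values, so the labelled cell type could not be checked against its markers, and no transcript level of the 10 genes was measured here.

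In granulosa cells the luteinising hormone surge raises cyclic AMP, releases EGF-like ligands and so activates the RAS, RAF, MEK and ERK cascade, which is needed for ovulation. The cascade induces its own inhibitors. DUSP proteins remove the phosphates that activate ERK, JNK or p38 in the nucleus or the cytoplasm, and Sprouty and SPRED proteins act further up, between the receptor and RAF. RUNX1 is a transcription factor that binds DNA with its partner CBFB and is induced by the ovulatory stimulus.

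At 6 h all 10 genes had a RUNX1 region found in both replicates, against 68.9% of all protein-coding genes. In 9 of the 10 such a region spanned one end of the gene, against 30.4%. Before hCG, 0 h replicate 1 had no peak at any of the 10, where 9.43% of all protein-coding genes had one. In 0 h replicate 2, 3 of the 10 had peaks, 6 in all at Dusp1, Dusp6 and Spred2, against 28.2% of genes, and 28.7% of genes had a peak in either 0 h library. The highest-ranking sites at 6 h lay at Dusp1, downstream of Dusp6 and beyond Spry4, while those of Dusp4 and Spry1 ranked in the lower part of both lists. The number of peaks per gene at 6 h was close to that of protein-coding genes in general, and the share of each 6 h list that lay at the 10 genes was between the shares of the 0 h lists.

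The promoters that lay whole within a replicated 6 h region are shown because the RUNX1 signal covers them. They belong to Dusp1, Dusp5, Dusp6, Dusp10 and Spred1, and the letters are the 250 bases before the annotated start, from RefSeq on GRCm38.p6, read 5′ to 3′ on the strand of the gene. Capitals mark the 21 bases centred on a 6 h summit, where a summit of either replicate falls in the window. In Dusp1, whose 6 h summits lie just inside the gene, the capitals mark a cyclic AMP response element (CRE).
Dusp1, chr17:26508473-26508722, minus strand: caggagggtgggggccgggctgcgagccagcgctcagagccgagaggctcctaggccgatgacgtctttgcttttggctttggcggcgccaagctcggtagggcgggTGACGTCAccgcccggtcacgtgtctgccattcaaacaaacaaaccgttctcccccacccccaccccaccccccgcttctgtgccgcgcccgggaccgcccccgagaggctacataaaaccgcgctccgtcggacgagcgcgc
Dusp5, chr19:53528895-53529144, plus strand: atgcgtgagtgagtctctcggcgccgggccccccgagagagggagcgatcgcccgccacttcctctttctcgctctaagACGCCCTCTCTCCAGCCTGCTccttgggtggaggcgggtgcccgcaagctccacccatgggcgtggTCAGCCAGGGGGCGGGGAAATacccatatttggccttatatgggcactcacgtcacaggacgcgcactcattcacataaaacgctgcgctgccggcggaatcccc
Dusp6, chr10:99262981-99263230, plus strand: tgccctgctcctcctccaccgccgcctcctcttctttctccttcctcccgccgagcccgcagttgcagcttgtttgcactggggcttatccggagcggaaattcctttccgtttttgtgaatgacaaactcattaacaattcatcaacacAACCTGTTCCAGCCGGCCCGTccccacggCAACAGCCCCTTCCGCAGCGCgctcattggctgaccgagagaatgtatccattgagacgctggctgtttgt
Dusp10, chr1:184034131-184034380, plus strand: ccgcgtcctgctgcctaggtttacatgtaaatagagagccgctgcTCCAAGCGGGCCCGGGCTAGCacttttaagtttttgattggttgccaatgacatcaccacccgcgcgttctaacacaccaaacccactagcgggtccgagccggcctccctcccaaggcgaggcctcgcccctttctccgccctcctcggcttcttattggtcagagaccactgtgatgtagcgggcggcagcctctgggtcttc
Spred1, chr2:117120821-117121070, plus strand: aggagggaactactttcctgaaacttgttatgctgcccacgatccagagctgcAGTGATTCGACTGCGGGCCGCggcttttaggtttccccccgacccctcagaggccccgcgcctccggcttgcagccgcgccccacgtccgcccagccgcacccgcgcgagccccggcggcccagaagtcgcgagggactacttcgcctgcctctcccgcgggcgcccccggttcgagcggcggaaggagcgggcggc

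The summits of the replicates did not mark the same bases. In Dusp5 they lay 161 and 95 bases before the start in 6 h replicates 1 and 2, and in Dusp6 61 and 90 bases before it. In Dusp10 the summit of replicate 2 lay in the window, 195 bases before the start, and in Spred1 that of replicate 1, 187 bases before the start. The letters searched were TGTGGT and TGCGGT, which RUNX proteins bind, TGANTCA, which AP-1 binds, and the CRE, TGACGTCA, each on both strands. The CRE was added after the sequences had been seen.

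Of the 10 genes, 8 had a promoter in the sequence table, which holds none for Dusp4 and Spry4. None of the 8 promoters held either RUNX hexamer in these 250 bases (0 of 8, exact Clopper-Pearson 95% CI 0 to 36.9%), while 17.6% of 17486 promoters of protein-coding genes held at least 1. The share was 19.1% in the 6373 promoters that overlapped a replicated 6 h region and 16.7% in the 11113 that did not. The hexamers differed in this respect. TGCGGT was in 9.78% of the overlapping and 3.52% of the other promoters, and TGTGGT in 10.1% and 13.7%. TGANTCA was likewise in none of the 8 promoters and in 6.18% of all promoters. The CRE was in 1 of the 8, Dusp1, at 143 to 136 bases before the start, and in 1.98% of all promoters, with 3.73% of those overlapping a replicated 6 h region and 0.981% of the rest. The absence of a match says only that these letters are not in this window, and the sequence under the other peaks was not analysed here. The GC content of the 8 promoters ran from 56.0% to 70.8% with a median of 62.4%, against a median of 55.2% for all promoters and 62.4% for those overlapping a replicated 6 h region.

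The lists differed greatly in length, which bears on every count that follows. They held 948 and 3135 peaks at 0 h and 18761 and 28671 at 6 h (replicates 1 and 2). The genome-wide background, solved from the deposited values and proportional to the reads used, was 2.77 and 2.65 reads per position at 0 h and 2.76 and 2.13 at 6 h. The lowest pileup (reads stacked at the summit) among called peaks was 20 and 19 reads at 0 h and 19 and 17 at 6 h, and sites with fewer reads are in none of the lists. List length moved with time, and its part in the counts cannot be told apart from that of the time point.

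Of the peaks at the 10 genes, 0 were in 0 h replicate 1, 6 in 0 h replicate 2, 20 in 6 h replicate 1 and 32 in 6 h replicate 2. Both 6 h libraries were above both 0 h libraries. Per 1000 peaks of the list these are 0, 1.91, 1.07 and 1.12. The exact 95% intervals, which cover counting error only, ran from 0.703 to 4.16 for 0 h replicate 2, from 0.651 to 1.65 for 6 h replicate 1 and from 0.764 to 1.58 for 6 h replicate 2. For the 0 of 948 in 0 h replicate 1 the exact upper limit was 3.88 per 1000, and the limit from 3 counts is 3.16 per 1000. The difference of the means was 0.134 per 1000, and leaving out 0 h replicate 1 turned it to -0.823 per 1000. It was 1.2 per 1000 among peaks with −log10 q of 20 and above, and 1.58 per 1000 in lists of equal length. In both cases the 10 genes had 0 peaks in both 0 h libraries, so these values are the 6 h shares alone. The value for equal lists rests on 2 peaks in 6 h replicate 1 and 1 in 6 h replicate 2. The direction relative to list length thus depended on 1 library, and the size on which peaks were counted.

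For a comparison gene by gene, peak numbers were set side by side in the 4 libraries. In 9 of the 10 genes both 6 h numbers were above both 0 h numbers, and 64.7% of all protein-coding genes met the same rule. The exception was Spred2, with 2 peaks in 0 h replicate 2 and in 6 h replicate 1. No gene of the 10 had more peaks at 0 h, against 0.00457% of all genes. With 2 libraries against 2 an exact two-sided permutation test cannot give less than p = 0.333. That was its value for each of the 9 genes, and for Spred2 the exact permutation p was 0.667.

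**Figure D1:**
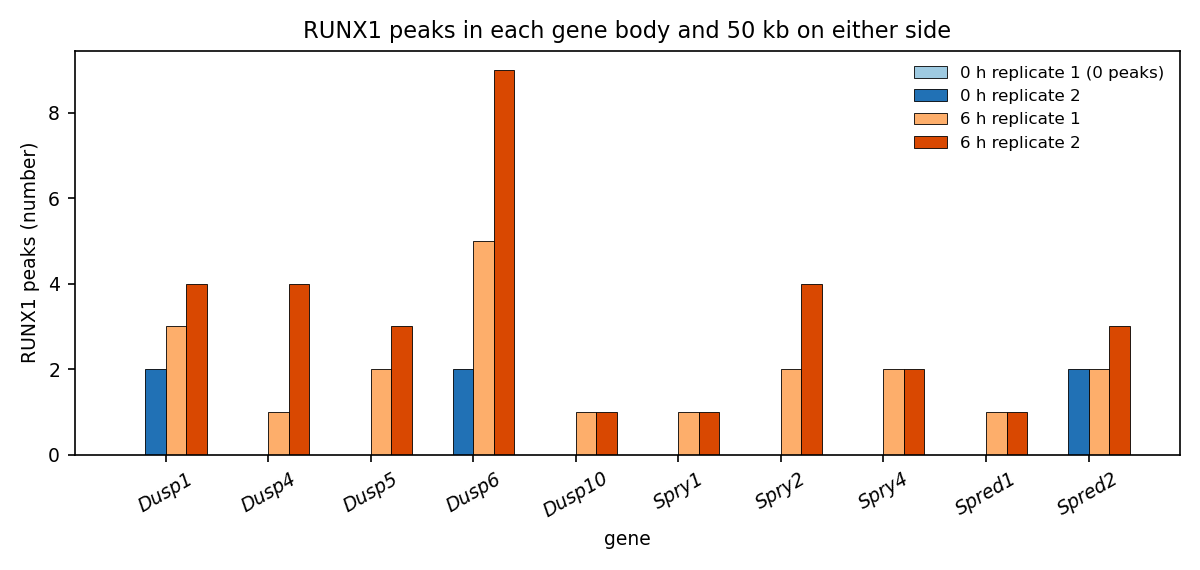
Number of RUNX1 peaks (vertical axis) in each of the 10 genes and 50 kb on either side (horizontal axis), with a bar for each library. Dusp6 has 5 and 9 peaks in the 6 h replicates, and 0 h replicate 1 has no bar because it had 0 peaks at every gene.

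A replicated region is an interval in which overlapping peaks of both replicates of a time point were merged. At 0 h no gene of the 10 had one, against 8.76% of all protein-coding genes. At 6 h all 10 did, against 68.9%. In lists cut to equal length, 948 peaks each, 1 of the 10 did. The 68.9% is for the full lists, and the share of all protein-coding genes at equal length is not given here. The 10 genes held 19 such regions at 6 h, with a median of 2 per gene, the same as the median of all protein-coding genes. Dusp6 had 5, a number reached by 14.4% of genes. Dusp1, Dusp5, Spry2, Spry4 and Spred2 had 2 each, while Dusp4, Dusp10, Spry1 and Spred1 had 1 each. The mean number of peaks per gene window was 2.00 and 3.20 for the 10 genes in 6 h replicates 1 and 2, and 2.35 and 3.24 for all protein-coding genes. The gene bodies of the 10 were somewhat shorter, with a median of 12475 bp against 17169 bp.

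**Figure D2:**
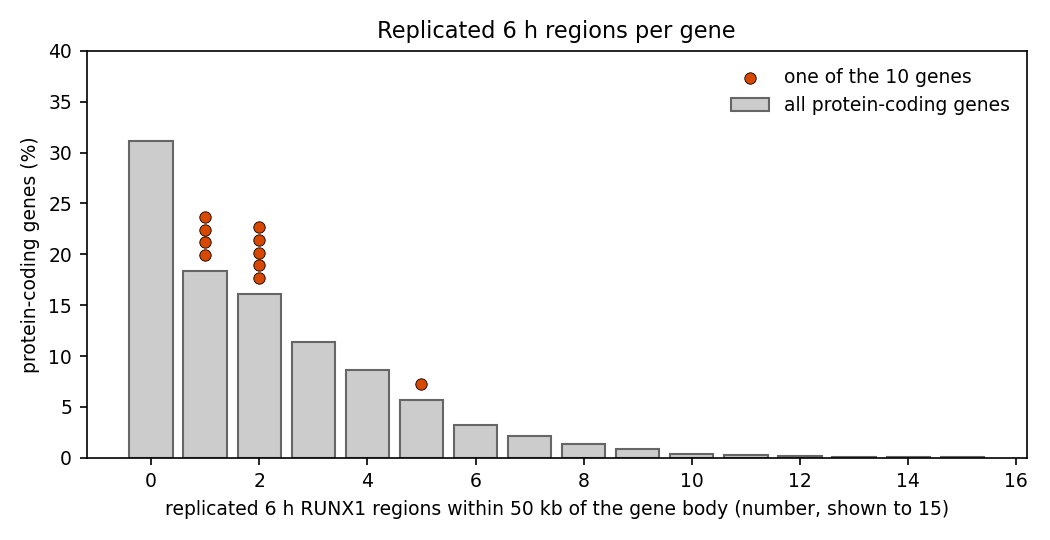
Share of protein-coding genes (vertical axis, %) by their number of replicated 6 h RUNX1 regions within 50 kb (horizontal axis), with a point above the bar for each of the 10 genes. The points sit at 1 region (4 genes), 2 regions (5 genes) and 5 regions (Dusp6), within the range of the bars.

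The regions were then placed relative to the gene ends and promoters. A replicated 6 h region spanned a gene end in 9 of the 10 genes, against 30.4% of all protein-coding genes, and Spry2 was the exception. At the 7 genes of known strand among the 9, that end was the start of the gene. In 9 of the 10 a summit of such a region stood no more than 1 kb from an end, against 37.7%, and here the exception was Spred2. Of the 8 promoters of 300 bases (250 before the start and 50 after), 7 overlapped a replicated 6 h region, against 36.4% of all promoters, and 5 lay whole within one, against 20.9%. In Dusp4, Dusp10, Spry1 and Spred1 the region at the gene end was the only replicated one in the window.

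**Figure D3:**
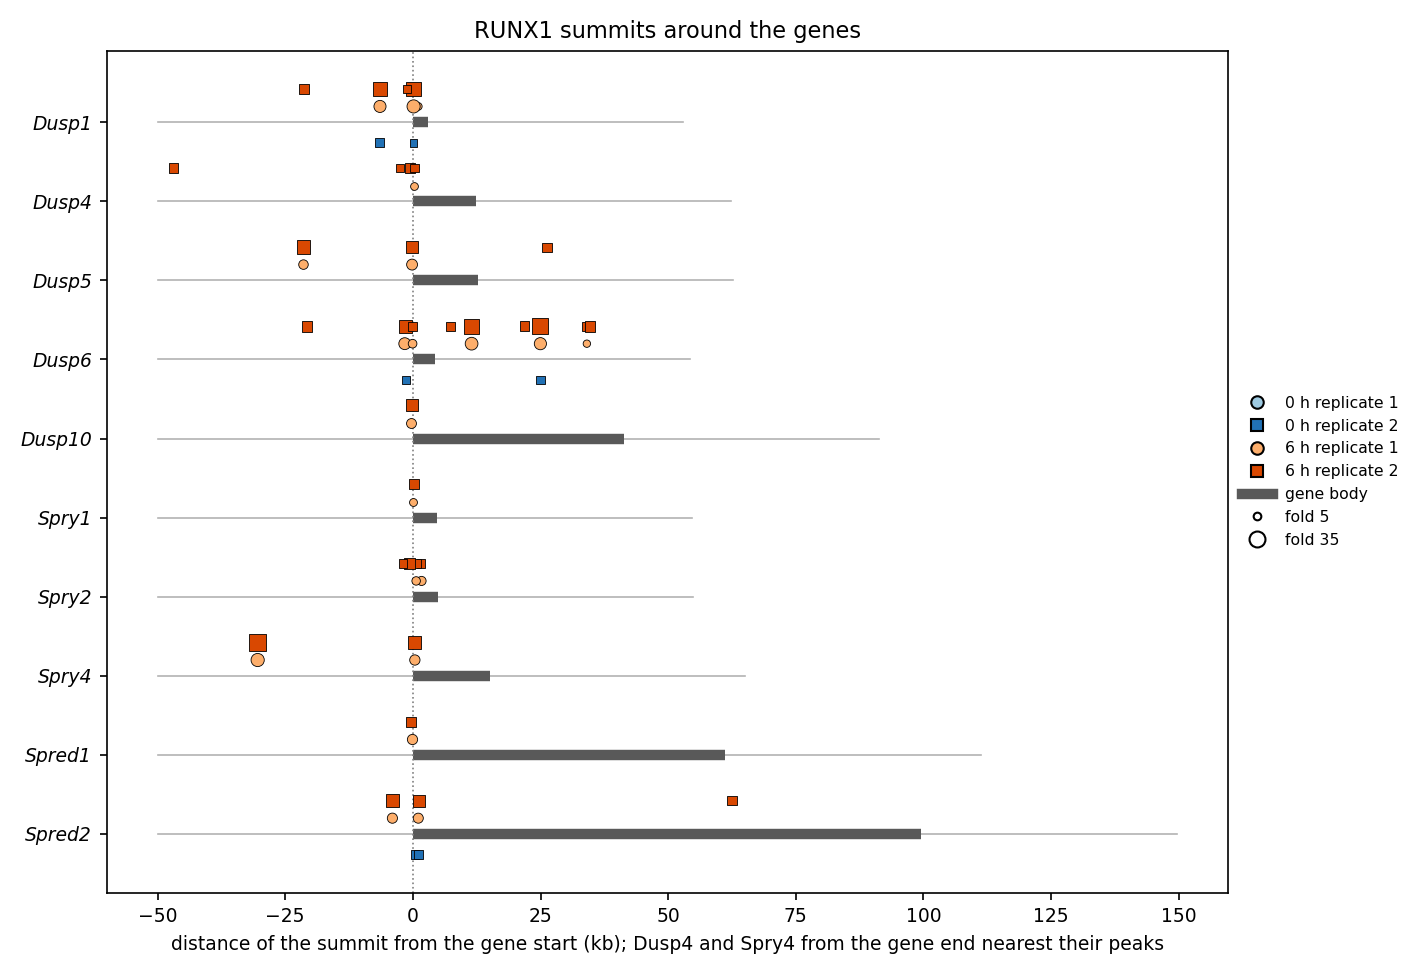
Position of every RUNX1 summit (horizontal axis, kb from the gene start, positive into the gene, for Dusp4 and Spry4 from the end nearest their peaks) for each of the 10 genes (rows). Grey bars are gene bodies, thin lines the 50 kb flanks, symbols the libraries and symbol size the fold. Every row has 6 h summits near 0, Dusp6 has several sites downstream of the gene, and the symbols of 0 h replicate 2 lie under Dusp1, Dusp6 and Spred2.

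The strength of a peak is given as the authors' fold enrichment over local background, as its percentile among the folds of its own list, and as the recovered pileup divided by the genome-wide background of its library. Fold values of different lists are not on a common scale, and the last quantity is corrected for depth alone.

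Dusp1 (chromosome 17, 26505591 to 26508472, minus strand) encodes a nuclear phosphatase of ERK, JNK and p38 and is a classic immediate-early gene. Its window held 0 and 2 peaks in the 0 h replicates and 3 and 4 in the 6 h replicates. The region over the start, at 26507863 to 26509099, had its 6 h summits inside the gene, 137 and 129 bp from the start. The fold there was 22.5 and 29.4 at 6 h, at percentiles 94.9 and 93.7, with pileups of 130 and 138 reads. In 0 h replicate 2 a peak with its summit 4 and 12 bp from those summits had a fold of 4.80, at percentile 5.69, and a pileup of 37 reads. Relative to the genome-wide background the pileup was 14.0 at 0 h and 47.1 and 64.8 at 6 h. The local background there was 6.91 reads at 0 h and 4.82 and 3.73 at 6 h, and the 37 reads at 0 h were above the median pileup of that list, 32 reads.

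The other replicated region of Dusp1 lay upstream, at 26514446 to 26515470, with summits 6445 and 6433 bp before the start and outside any annotated gene. At 6 h it had a fold of 18.4 and 26.1 and pileups of 136 and 171 reads. In 0 h replicate 2 it had a fold of 7.62, at percentile 56.0, and 34 reads. Over the genome-wide background this was 12.8 at 0 h and 49.3 and 80.3 at 6 h. The remaining 6 h peaks of Dusp1 were each found in 1 library only and were lower, with pileups of 27, 27 and 35 reads.

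Dusp4 (chromosome 8, 34807610 to 34819894) encodes a nuclear phosphatase related to Dusp1. It had 0 peaks in both 0 h libraries, 1 in 6 h replicate 1 and 4 in 6 h replicate 2. The single replicated region, at 34807332 to 34808108, spanned a gene end. It was weak, with a fold of 5.28 and 7.31 at percentiles 9.21 and 18.5, and pileups of 34 and 39 reads. The other 3 peaks of replicate 2 lay 576, 2495 and 46839 bp from the same end and had no counterpart in replicate 1.

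Dusp5 (chromosome 19, 53529145 to 53541809, plus strand) encodes a nuclear phosphatase specific to ERK. It had 0 and 0 peaks at 0 h and 2 and 3 at 6 h. Over its promoter, at 53528663 to 53529777, the fold was 14.2 and 17.9, with pileups of 75 and 76 reads. A narrower region lay 21428 and 21438 bp before the start, at 53507517 to 53507960. Here the replicates differed more, with a fold of 9.97 in replicate 1 and 23.8 in replicate 2, and pileups of 41 and 82 reads. The third peak of replicate 2, with 32 reads, lay 13588 bp beyond the other end of the gene.

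Dusp6 (chromosome 10, 99263231 to 99267489, plus strand) encodes the cytoplasmic phosphatase of ERK and is a widely used readout of ERK activity. It had the most peaks of the 10 genes, with 0 and 2 at 0 h and 5 and 9 at 6 h, although its body is only 4259 bp long. All 5 peaks of 6 h replicate 1 had a partner in replicate 2.

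The regions with the highest rank at Dusp6 lay downstream, outside annotated genes. The first, at 99274354 to 99275088, was 7236 and 7242 bp beyond the gene and had a fold of 20.9 and 31.3, with 87 and 108 reads. It had no 0 h peak. The next, at 99287811 to 99288535, was 20711 and 20671 bp beyond the gene, and had the most reads of any site at the 10 genes, 153 and 247. Its fold was 18.7 and 34.4. In 0 h replicate 2 the same site, with a summit 20 bp from each 6 h summit, had a fold of 8.08, at percentile 64.3, and 35 reads. Over the genome-wide background this was 13.2 at 0 h and 55.4 and 116 at 6 h.

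Upstream of Dusp6, at 99261137 to 99262288, a region had its summits 1592 and 1405 bp before the start. Its fold was 17.7 and 20.1 at 6 h with 72 and 69 reads, and in 0 h replicate 2 it was 5.16, at percentile 8.95, with 22 reads. The region over the start itself, at 99262826 to 99263740, had a low fold of 7.52 and 7.02 but pileups of 79 and 67 reads, about as many as the upstream region. The local background at the start was 9.64 and 8.69 reads, or 3.49 and 4.08 times the genome-wide value, while at the upstream region it was 3.12 and 2.48 reads. The replicated region farthest downstream, at 99296988 to 99297395, was weak, with a fold of 4.38 and 7.82. The poorest rank over both 6 h replicates among the 19 regions was that of this site.

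Dusp10 (chromosome 1, 184034381 to 184075636, plus strand) encodes a phosphatase that acts mainly on JNK and p38. It had 0 and 0 peaks at 0 h and 1 and 1 at 6 h. Its fold was 11.1 and 15.7, with pileups of 90 and 83 reads, in a region at 184033384 to 184034519. It also covers the end of the neighbouring coding gene 1700056E22Rik. Its summits lay 345 and 195 bp from Dusp10 and 38 and 188 bp from that neighbour. Counting a peak only for its nearest coding gene therefore left Dusp10 with 0 peaks.

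The Sprouty genes encode membrane-associated inhibitors of receptor tyrosine kinase signalling to RAS and ERK, and none of the 3 had a peak at 0 h. Spry1 (chromosome 3, 37639947 to 37644599, plus strand) had 1 peak in each 6 h library, at 37639896 to 37640595 over its start. The fold was 5.58 and 9.11, at percentiles 12.1 and 36.8, with 27 and 33 reads. Spry2 (chromosome 14, 105891947 to 105896819, minus strand) had 2 and 4 peaks at 6 h. Both of its replicated regions were inside the gene, with summits 1694 and 1567 bp and 636 and 734 bp from the start, and pileups between 30 and 34 reads. The first was at percentiles 52.0 and 19.4 in replicates 1 and 2, and the second at 30.8 and 34.5. In replicate 2 alone a higher peak of 49 reads lay 598 bp before the start. Spry1 and Spry2 held no other replicated site within 50 kb.

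Spry4 (chromosome 18, 38586247 to 38601347) differed from them. It had 2 peaks in each 6 h library, at the same 2 places. The region at 38600672 to 38601744 spanned a gene end, with summits 384 and 341 bp inside the gene. The fold was 12.4 and 20.9 with 61 and 82 reads. The highest mean rank of the 19 was that of the region at 38631359 to 38632184, with a fold of 22.8 and 39.4 at percentiles 95.1 and 97.4, and 95 and 141 reads. It lay 30402 and 30398 bp from Spry4 and inside the neighbouring Arhgap26, which the region at the gene end also overlapped. The peak lists do not tell which of the genes a site belongs to.

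SPRED proteins recruit neurofibromin, which switches RAS off. Spred1 (chromosome 2, 117121071 to 117182279, plus strand) had 0 and 0 peaks at 0 h and 1 and 1 at 6 h, over its start at 117120403 to 117121218. The fold was 12.2 in replicate 1 and 8.80 in replicate 2, with 60 and 57 reads. The replicates differed more in rank, at percentiles 75.0 and 33.7, than in reads. Spred2 (chromosome 11, 19924442 to 20024026, plus strand) had 0 and 2 peaks at 0 h and 2 and 3 at 6 h. Both 0 h peaks, with 24 and 39 reads and summits 466 and 1095 bp inside the gene, lay in the 6 h region at 19924274 to 19925935. At 6 h that region reached a fold of 11.5 and 17.6, with pileups of 53 and 69 reads. For the 0 h summit nearest to it, the pileup over the genome-wide background was 14.7 at 0 h and 19.2 and 32.4 at 6 h, the smallest gap of the sites called at 0 h. A region 4013 and 4074 bp before the start, at 19919639 to 19920722, had no 0 h peak and a fold of 11.9 and 22.6.

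Across the genes, each of the 6 peaks of 0 h replicate 2 lay in a replicated 6 h region, in 5 regions in all. The share of all 3135 peaks of that library that did so is not given here. Genome-wide, 2778 replicated 6 h regions held a peak of it, so such overlap was not limited to these genes. At these 5 regions the depth-corrected pileup was higher in both 6 h libraries than in 0 h replicate 2, by 1.30 times (Spred2) to 4.20 times (Dusp6, downstream) in replicate 1 and by 2.2 to 8.78 times in replicate 2 for the same sites. The same held at 96.1% of the 2778 replicated 6 h regions that hold a peak of 0 h replicate 2, with median ratios of 2.67 and 4.14 in the 6 h replicates. These ratios rest on 1 library at 0 h, since 0 h replicate 1 had no peak there, and have no test. The other 14 of the 19 regions overlapped no 0 h peak, or 73.7% (exact Clopper-Pearson 95% CI 48.8 to 90.9). Among all replicated 6 h regions the share was 83.5%.

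**Figure D4:**
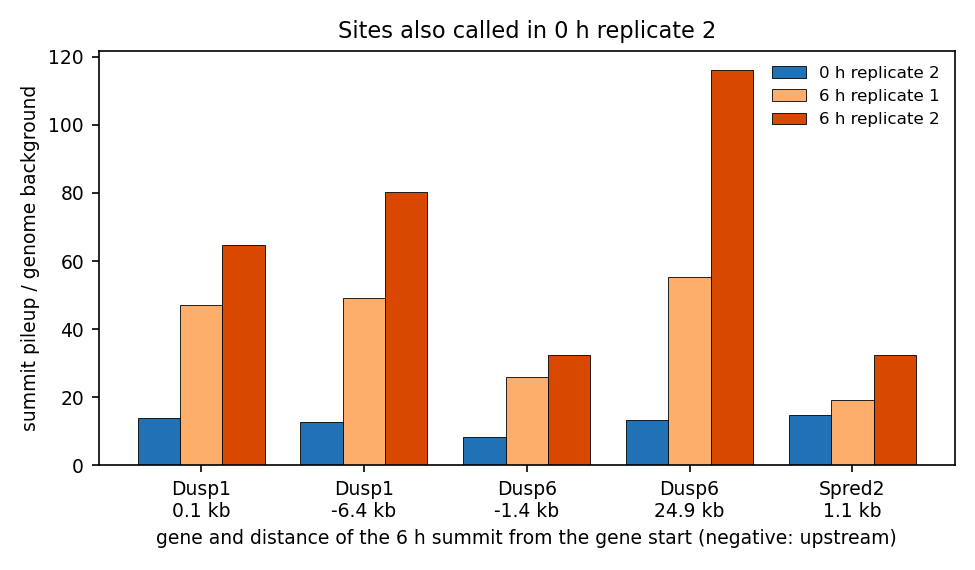
Pileup at the summit divided by the genome-wide background (vertical axis) for the 5 regions at Dusp1, Dusp6 and Spred2 that were also called in 0 h replicate 2, with a bar for each library that had a peak. The 6 h bars are above the 0 h bar at each site, with the smallest difference at Spred2.

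A site without a 0 h peak need not be unbound at 0 h. The lowest pileup over genome-wide background that entered a 0 h list was 7.22 in replicate 1 and 7.17 in replicate 2. The 19 regions stood between 9.78 and 55.4 in 6 h replicate 1 and between 14.1 and 116 in 6 h replicate 2. The lowest in both 6 h libraries were among the sites at Spry1, Spry2, Dusp4 and the farthest site of Dusp6.

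In rank the 19 regions spread widely. The mean percentile over both 6 h replicates had a median of 76.0, against 59.1 for all replicated 6 h regions, and ran from 13.3 to 96.2. The median width was 826 bp against 611 bp. When each list was reduced to its 948 peaks with the lowest p-values, the length of the shortest list, 2 peaks at the 10 genes were left in 6 h replicate 1 and 1 in 6 h replicate 2, with none at 0 h. They were the Dusp1 start in replicate 1 and the distal Dusp6 site in both. On the log2 scale, with 1 added to each number, the mean difference in peak number between the time points was 3.31 with all peaks and 1.29 with lists of 948. At equal list length that difference rested on 2 sites.

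**Figure D5:**
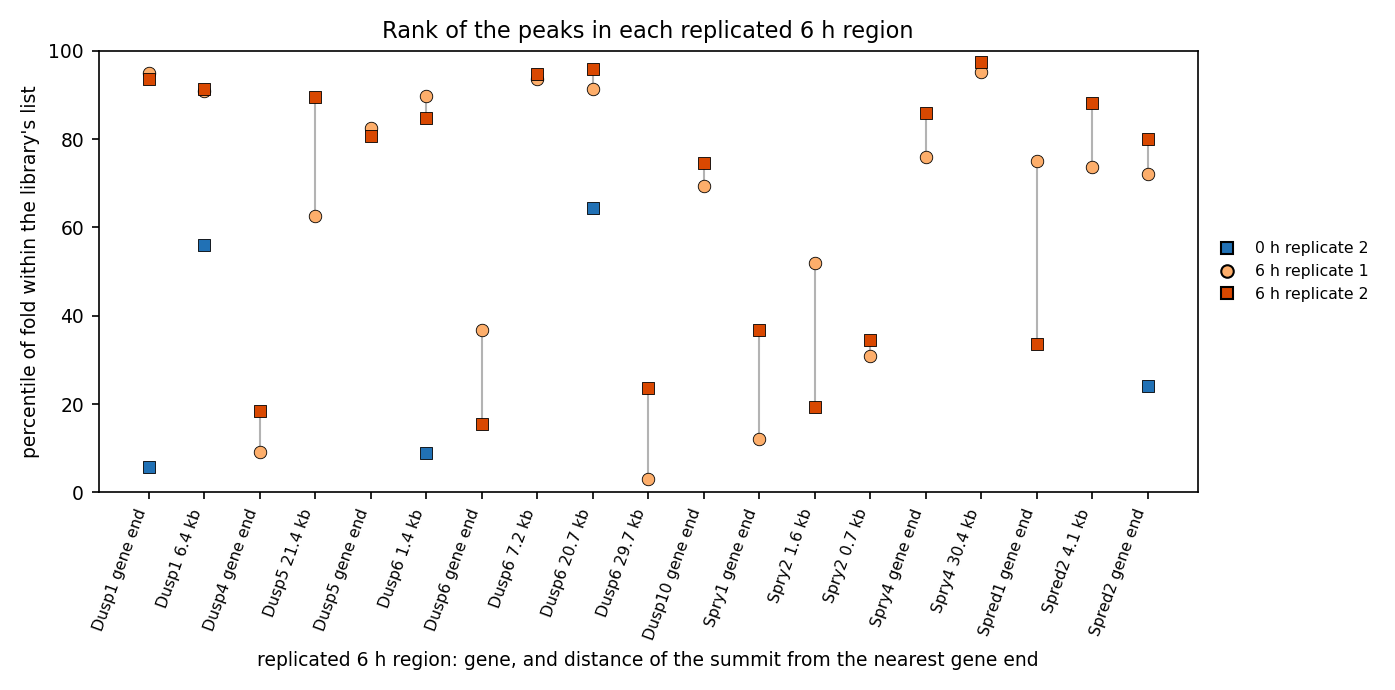
Percentile of fold within the library's own list (vertical axis) for each of the 19 replicated 6 h regions (horizontal axis), with a symbol for each library that had a peak. Both regions at Dusp1, the first and second downstream of Dusp6 and the one beyond Spry4 are above 90 in both 6 h lists, while the highest value of the Dusp4 and Spry1 regions is 36.8.

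Other genes of the pathway were counted with the same window. Of 7 further phosphatase, Sprouty and SPRED genes, 4 had a replicated 6 h region, or 57.1%, against 68.9% of all protein-coding genes, and none a replicated 0 h region, against 8.76%. Both 6 h numbers were above both 0 h numbers in 4, against 64.7% of all genes. In 2 of the 7 a summit of such a region stood no more than 1 kb from a gene end, against 37.7%. The 4 were Dusp7, an ERK phosphatase, Dusp8 and Dusp16, which act on JNK and p38, and Spred3. The highest-ranking region of this list was at Dusp7, at 106367500 to 106368641 on chromosome 9, with a fold of 14.0 and 17.6, followed by those near Spred3, inside Fam98c, with 10.4 and 18.7, and at Dusp8, with 11.4 and 15.6. Dusp2, Dusp9 and Spry3 had none. Spry3 had 0 peaks in all 4 libraries.

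Genes of the receptor, the adaptors and the kinases of the cascade came next. All 26 had a replicated 6 h region, against 68.9% of all protein-coding genes, and both 6 h numbers above both 0 h numbers, against 64.7%. In 23 a summit of such a region stood no more than 1 kb from a gene end, against 37.7%. At 0 h, 2 of the 26 had a replicated region, against 8.76% of all genes. They were Ksr1, a scaffold of RAF and MEK, with 3, and Rps6ka2, an ERK-activated kinase, with 1. Among the highest-ranking 6 h regions of the list were those at Rasa1, a RAS GTPase-activating protein, with a fold of 28.1 and 47.4, and in the window of Araf, inside Syn1 and Timp1, with 26.6 and 45.6. No difference between the lists was tested.

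Of 16 genes downstream of ERK, which ERK signalling induces or which, like Elk1, encode transcription factors that ERK phosphorylates, 15 had a replicated 6 h region, or 93.8%, against 68.9% of all protein-coding genes. In 14 both 6 h numbers were above both 0 h numbers, against 64.7%, and in 11 a summit of a replicated region stood no more than 1 kb from a gene end, against 37.7%. Etv1 had 0 peaks in all libraries, and Etv5 had 1 peak in 0 h replicate 2 and in 6 h replicate 1. At 0 h, 2 of the 16, Fos and Mcl1, had 1 replicated region each, against 8.76% of all genes with any. The highest-ranking 6 h regions were in the windows of Ier3, with a fold of 34.8 and 40.6 inside the neighbouring Tubb5, Ier2, with 20.6 and 32.3 inside Lyl1, and Mcl1, with 16.7 and 35.8. All of these windows reach other genes.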

How the data were processed

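RUNX1 ChIP-seq peaks were analysed in 4 libraries (0 h and 6 h after hCG, 2 each). The 2 inputs entered through the peak calls alone. Reads were 75 nt single ends, per the labels. The submitters' processing notes name Bowtie2 2.2.5, MACS2 and mm10, which is GRCm38, without settings. Per the file names, the authors called peaks for each library against an input. The deposited lists hold the fold enrichment at each summit, its p-value and q-value as −log10, and a score made from the −log10 p that was not used. Gene bodies, promoters and strand were taken from RefSeq tables on GRCm38.p6. The strand came from the promoter table.

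Summits within 50 kb of a gene body were counted for every protein-coding gene. Peaks sharing at least 1 bp were one site. The whole-number pileup and local background were solved from the fold and −log10 p as MACS2 computes them, within 0.005, for 100% of peaks. The most frequent background in a list is its genome-wide value. A promoter was the most upstream one listed for a gene. Counts of members are set beside the percent of all protein-coding genes, with no set test. The mean log2 difference in peak number uses a pseudocount of 1. Scripts (Python 3.11.15, scipy 1.17.1) were tested on simulated data. The genes, lists and tests were chosen with earlier results of these data known. All 10 genes are named, with the sites of every 0 h peak and the highest-ranking 6 h regions. The remaining 6 h regions were added so that each is accounted for. In the other lists, genes with a replicated 0 h region and the 3 highest-ranking are named, except 1 that is not reported here. Those with no region, with no peak, or outside the rule on numbers were named after their values were seen. Alternatives changed the window, the peaks, the overlap rule and the libraries.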

Additional observations from a re-analysis of the deposited data

How the results depend on the processing

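Alternatives were windows of 10 kb and 100 kb, the nearest coding gene, 50% of both intervals overlapping and −log10 q limited to 20 and above. In these, genes with a replicated region, regions without a 0 h peak and genes without overlap between the time points stayed within 1.5 times their number. With the limit on q the 10 genes had 0 peaks in both 0 h libraries. The 14 regions without a 0 h peak were then all the regions left. The difference in share of the lists, 0.134 per 1000 peaks, varied more. It was 0.0126 at 10 kb, 0.565 at 100 kb, 0.046 with the nearest gene and 1.2 with the limit on q. Lists of 948 peaks left 1 gene with a replicated 6 h region, 1 region without a 0 h peak, 1 gene without overlap between the time points, a mean log2 difference in peak number of 1.29 (3.31 with all peaks) and a difference of 1.58 per 1000. Summits within 100 bp left 9 regions without a 0 h peak, in place of 14. Fewer regions counted as replicated under that rule. The 6 h summits lay farther apart at Dusp10, Spry1 and Spred1 (150, 163 and 230 bp), among others. Genes with a replicated 6 h region numbered 7 under that rule and 7 with the limit on q. Shares of all protein-coding genes under these settings are not given here. Leaving out 1 library gave 0 to 3 genes with a 0 h region, 14 to 27 regions without a 0 h peak and -0.823 to 1.09 per 1000. The log2 difference was 1.91 without 0 h replicate 1 and 4.72 without 0 h replicate 2. The 3 genes appear without 0 h replicate 1, and the 27 regions without 6 h replicate 1, because a region then needs 1 library. Without 0 h replicate 2, 19 regions had no 0 h peak, because 0 h replicate 1 had 0 peaks at these genes. The -0.823 and 1.09 per 1000 came from leaving out 0 h replicate 1 (0 per 1000) and 0 h replicate 2 (1.91 per 1000). The cause of the remaining changes was not tested. Of 100 single-gene differences under the alternatives, 91 were above 0, 9 were 0 and 0 were reversed, and 22 moved by more than the spread between replicates. The 100 include each gene's value with the replicate number as a block, which equals the main value by arithmetic. In lists of 948 peaks the difference was above 0 only at Dusp6 (1) and Dusp1 (0.5). The zeros were the remaining genes in those lists and Dusp10 with the nearest coding gene.

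With the replicate number as a block the log2 difference, 3.31, and the difference per 1000, 0.134, equal the main values by arithmetic and could not change. In this pairing 10 genes had more 6 h peaks in both pairs, where 9 had no overlap. The share of all protein-coding genes under the paired rule is not given here. The smallest p of a test in such pairs is 0.5. The numbers are not known to pair the libraries. Over 21887 genes the correlation of the replicate differences at 0 h and 6 h was -0.0299.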
